A study of Mus musculus with 2 samples.

Results

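Chromatin boundaries that lie between divergent coding genes were described in mature olfactory sensory neurons of the mouse. A boundary was taken when no protein-coding gene began inside its 5 kb interval, when a gene on the minus strand began within 20 kb to the left of the midpoint, and when a gene on the plus strand began within 20 kb to the right. In this arrangement both genes are transcribed away from the boundary. Of the 8058 boundaries in the deposited list, 108 met the rule, and they lay beside 216 different genes. The rule used gene positions and neither boundary strength nor sequence, although sequence composition varies with gene position.

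Contacts were measured by in situ Hi-C, in which crosslinked chromatin is cut (here with DpnII) and fragments held near each other are ligated inside the nucleus. GFP-positive neurons were isolated with FACS from olfactory epithelia of adult OMP-GFP mice, in which the olfactory marker protein gene drives GFP. The labels give the strain as 129P2/OlaHsd, the sex as mixed, and no treatment. The 2 biological replicates of this 1 group, from 3000000 and 1500000 cells fixed in 1% formaldehyde for 10 min, were pooled by the authors into 1 contact map before boundaries were called. Each boundary therefore has 1 value, with no spread between replicates, and no p-value is given. The intervals printed beside shares and medians (95%, exact) cover the counting of boundaries or genes only, and differences between sets of boundaries were not tested. Transcripts, CTCF binding and contact depth were not analysed here, so the labelled cell type could not be set against its marker genes.

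A boundary is a place that contacts cross less often than they cross its surroundings, and it separates neighbouring contact domains. CTCF, a zinc finger protein, stalls the cohesin ring as it extrudes loops, and it does so mainly when its asymmetric site faces the approaching ring. Sites at the edge of a domain therefore tend to point into that domain, which for sites on either side of a boundary means away from it. Promoters of active genes are also known to lie at domain borders. In a divergent pair the promoters flank the gap and the gene bodies extend outwards.

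Sites that match the core consensus of CTCF and point away on both sides are shown first, because they have the layout known from the borders of loop domains. They were found at 4 of the 108 boundaries, among them those of Gdf7/Hs1bp3, Hpca/Fndc5 and Wnt9b/Wnt3, which are shown. Each pair is named with the gene to the left of the boundary first. The sequences are those of the reference strain (RefSeq GRCm38.p6), not of the mice used, and are written 5′ to 3′ on the strand of the match, with the 14 matching bases in capitals and 12 bases on each side.
Gdf7/Hs1bp3, left of the midpoint, chr12:8306721-8306758, minus strand: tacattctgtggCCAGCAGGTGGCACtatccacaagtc
Gdf7/Hs1bp3, right of the midpoint, chr12:8313337-8313374, plus strand: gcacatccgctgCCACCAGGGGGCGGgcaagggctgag
Hpca/Fndc5, left of the midpoint, chr4:129130256-129130293, minus strand: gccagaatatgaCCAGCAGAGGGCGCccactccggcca
Hpca/Fndc5, right of the midpoint, chr4:129134989-129135026, plus strand: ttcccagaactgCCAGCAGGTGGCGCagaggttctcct
Wnt9b/Wnt3, left of the midpoint, chr11:103758923-103758960, minus strand: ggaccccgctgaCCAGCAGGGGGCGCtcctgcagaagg
Wnt9b/Wnt3, right of the midpoint, chr11:103763920-103763957, plus strand: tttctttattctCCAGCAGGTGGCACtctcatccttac

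These sites differ in how near they lie to the boundary. At Gdf7/Hs1bp3, which code for a bone morphogenetic protein family ligand and an HS1-binding protein, the left match lay 0.761 kb from the midpoint and the right one 5.855 kb. At Hpca/Fndc5 (the neuronal calcium sensor hippocalcin, and the precursor of irisin) they lay 2.226 and 2.507 kb from the midpoint. At Wnt9b/Wnt3, genes of Wnt ligands, the matches lay 3.559 and 1.438 kb away. Strength, the authors' score without a stated scale, was 2.05 at Gdf7/Hs1bp3, 1.15 at Hpca/Fndc5 and 0.225 at Wnt9b/Wnt3. The same layout of sites thus stood at boundaries near the top and near the bottom of the list.

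The strengths of divergent boundaries lay in the range of other boundaries with coding genes nearby, with overlapping intervals, and above those of boundaries far from coding 5′ ends. Strength ran from 0.218 to 3.94 with a median of 0.631 (95% interval 0.493 to 0.735, n = 108), and the quartiles were 0.322 and 1.02. The authors class scores over 0.5 as Strong and those below as Weak. Of the 108 divergent boundaries 64 were Strong (59.3%, interval 49.4 to 68.6%), beside 50.8% of all 8058 boundaries. Among boundaries with coding 5′ ends within 20 kb on both sides but in another arrangement, 111 of 184 were Strong (60.3%, interval 52.9 to 67.4%), with a median of 0.683 (0.548 to 0.799). With a coding 5′ end on 1 side only, 1259 of 1947 were Strong (64.7%, 62.5 to 66.8%; median 0.682). With a coding 5′ end inside the interval, 386 of 603 were Strong (64.0%, 60.04 to 67.9%; median 0.673). The set that stood apart was the 5216 boundaries without a coding 5′ end within 20 kb, of which 43.6% (42.2 to 44.9%) were Strong, with a median of 0.431 (0.418 to 0.445).

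A strength in the top 25% of the list (0.928 or more) was found at 34 divergent boundaries (31.5%, interval 22.9 to 41.1%), beside 25% of all boundaries by definition. A strength of 2 or more was found at 5 (4.63%, 1.52 to 10.5%), beside 3.46% of all. In the other arrangement with genes on both sides, 32.1% lay in the top 25% and 5 of 184 (2.72%) had a strength of 2 or more. With genes on 1 side these shares were 34.7 and 6.11%, with a gene start inside 32.2 and 2.99%, and without coding 5′ ends within 20 kb 20.2 and 2.53%. For a strength of 2 or more each of these values lay inside the interval of the divergent set.

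**Figure D1:**
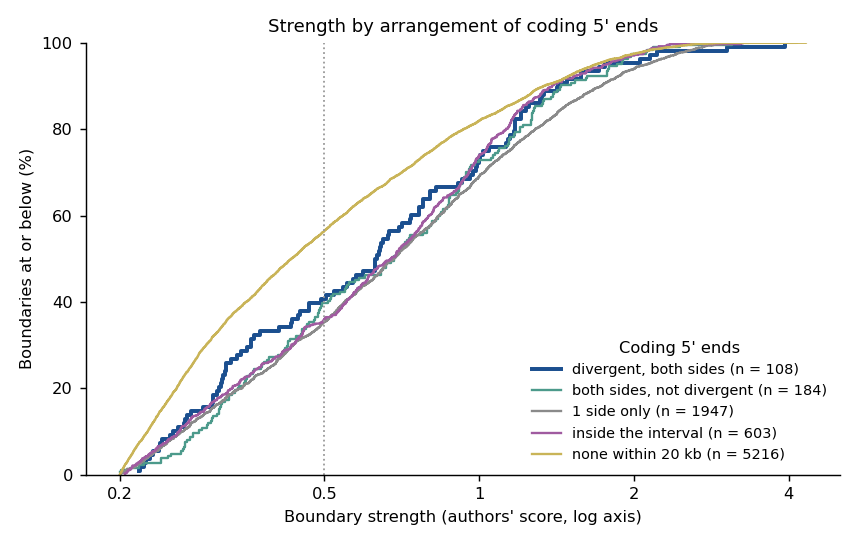
Cumulative share of boundaries (%, vertical axis) at or below a strength (authors' score, log horizontal axis), by where coding 5′ ends lie. The dotted line marks the class limit of 0.5. The curve of the 108 divergent boundaries runs with those of the other 3 sets near coding genes, with medians of 0.631 to 0.683, and the curve of boundaries without a coding 5′ end within 20 kb lies at lower strengths (median 0.431).

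The strongest divergent boundary, on chromosome 11 at 3195001 to 3200000, had a strength of 3.94, the third highest of the whole list. It lay between Sfi1, a centrin-binding protein gene of the centrosome, and Eif4enif1, whose product carries the cap-binding factor eIF4E into the nucleus. Their 5′ ends lay 4.04 and 4.89 kb from the midpoint, which makes the gap of 8.93 kb one of the 3 shortest. The interval fell in an intron of the overlapping coding gene Drg1, no CTCF core match lay within 20 kb, and repeats (soft-masked sequence) took 56.5% of it, beside a median of 34.6% at divergent boundaries. It was the first boundary of chromosome 11, so no domain could be measured on its left. The next, of strength 3.03 on chromosome 13 at 90915001 to 90920000, lay between Atp6ap1l and Rps23, the gene of a small ribosomal subunit protein. Its ends lay 12.1 kb to the left and 5.46 kb to the right, again without a CTCF core match within 20 kb.

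The promoters of these 4 genes are shown because the divergent set holds both CpG-rich and CpG-poor ones, and the pair at Rps23 holds 1 of each kind. The 150 bases before each gene's 5′ end (RefSeq GRCm38.p6) are written 5′ to 3′ on the gene's strand, with CG dinucleotides in capitals.
Sfi1, chr11:3193464-3193613, minus strand: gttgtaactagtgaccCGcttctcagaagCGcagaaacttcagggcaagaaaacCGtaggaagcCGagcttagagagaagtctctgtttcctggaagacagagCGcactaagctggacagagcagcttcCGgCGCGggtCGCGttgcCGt
Eif4enif1, chr11:3202242-3202391, plus strand: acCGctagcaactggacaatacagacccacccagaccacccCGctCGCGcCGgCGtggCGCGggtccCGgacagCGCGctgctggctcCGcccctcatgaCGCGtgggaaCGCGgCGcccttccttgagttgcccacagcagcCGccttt
Atp6ap1l, chr13:90905356-90905505, minus strand: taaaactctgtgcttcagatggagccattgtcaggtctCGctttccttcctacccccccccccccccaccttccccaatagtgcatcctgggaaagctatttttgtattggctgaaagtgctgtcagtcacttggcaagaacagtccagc
Rps23, chr13:90922808-90922957, plus strand: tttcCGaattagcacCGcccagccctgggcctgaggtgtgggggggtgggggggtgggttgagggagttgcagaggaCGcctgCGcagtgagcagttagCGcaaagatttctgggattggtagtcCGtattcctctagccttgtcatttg

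CG dinucleotides numbered 11 before Sfi1, 18 before Eif4enif1, 1 before Atp6ap1l and 6 before Rps23. A promoter was called CpG-rich when its 300 bases (250 before to 50 after the 5′ end) had at least 50% GC and at least 0.6 of the CG dinucleotides that base composition gives. By this rule Sfi1 (0.995 of that number), Eif4enif1 (0.991) and, close to both limits, Rps23 (50.7% GC, 0.624) were CpG-rich, and Atp6ap1l (0.312) was not. Of the 216 flanking genes 104 had a CpG-rich promoter (48.1%, interval 41.3 to 55.03%), beside 41.6% of all 21755 coding genes. The nearest genes of boundaries with another arrangement on both sides had one in 132 of 368 (35.9%, 31.0 to 41.0%), and those of boundaries with genes on 1 side in 977 of 1947 (50.2%). The share was highest, 58.1% (54.3 to 61.8%), for genes that began inside a boundary interval. The genes of the divergent set were picked by strand, and at 28 boundaries another coding gene began nearer to the midpoint. Their share is therefore not strictly like that of the nearest genes.

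Median strengths overlapped between divergent boundaries with more and fewer CpG-rich promoters. Of the 108 pairs, 23 had CpG-rich promoters at both genes, 58 at 1 and 27 at neither. Median strength was 0.641 (0.321 to 1.17), 0.634 (0.493 to 0.908) and 0.593 (0.317 to 0.777) in these groups, and the Strong shares were 56.5, 62.1 and 55.6%. Strong boundaries with no CpG-rich promoter included Pcnx2/Map3k21, the second of which codes for a mixed lineage kinase (2.22), and Rgsl1/Teddm1b (1.48). Weak boundaries with both promoters CpG-rich included Kcp/Irf5, the second of which codes for an interferon regulatory factor (0.219), and Wnt9b/Wnt3.

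The other strong members lay beside genes of varied function. Lsg1/Fam43a, the first of which codes for a GTPase in maturation of the large ribosomal subunit, had a strength of 2.15, with 5′ ends 4.91 and 7.22 kb away. Stip1/Macrod1 (a cochaperone that links Hsp70 and Hsp90, and a hydrolase of ADP-ribose) had 1.76, with ends 7.53 and 9.31 kb away. Fkbp6/Nsun5 (an immunophilin needed in meiosis and a ribosomal RNA methyltransferase) had 1.71. There the interval covered an exon of Trim50, and a further coding 5′ end lay between the midpoint and a gene of the divergent pair. Lgals2/Gga1 (a galectin and a Golgi trafficking adaptor) had 1.58, and Ptges/Tor1b (prostaglandin E synthase and a torsin of the endoplasmic reticulum) also had 1.58. Col26a1/Ift22 (a collagen chain and an intraflagellar transport protein) had 1.42, as did 1700069L16Rik/Ficd, the second of which codes for the enzyme that AMPylates the chaperone BiP. At the other end, Actg1/Fscn2 (gamma-actin and a fascin of photoreceptors) had 0.223, and Cyp4f13/Zfp472, a cytochrome P450 and a zinc finger gene, had the lowest value of 0.218.

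Distances from the boundary to the flanking 5′ ends, limited by the rule to 20 kb, are given as a description. The distance from the midpoint to the left 5′ end had a median of 9.23 kb (quartiles 5.53 and 13.9 kb) and that to the right one 9.72 kb (5.70 and 14.9 kb). Gaps between the flanking 5′ ends ran from 8.31 kb at Ska1/Cxxc1 (a kinetochore protein and a CpG-binding subunit of a histone methyltransferase) to 37.6 kb at Tex37/Foxi3, with a median of 19.1 kb. The nearer end was the left one at 55 of 108 boundaries (50.9%, interval 41.1 to 60.7%). The nearer of the 2 ends lay a median of 5.77 kb away. Because genes may not begin inside the interval, no distance could be under 2.5 kb.

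Strength showed little relation to this geometry. Divided into 3 equal groups by gap, boundaries had median strengths of 0.642 (gaps of 8.31 to 16.3 kb), 0.653 (16.4 to 22.9 kb) and 0.581 (23.1 to 37.6 kb). Across the 108 boundaries, which share 1 map, Spearman's rho of strength was -0.103 with the gap and -0.155 with the distance to the nearer end. Jmjd6/Mfsd11, with a gap of 8.99 kb, had a strength of 1.17, and Ska1/Cxxc1 had 0.467. Among the longest gaps, Tex37/Foxi3 (the second a forkhead factor) had 1.25, Fads6/Otop3 (the second a proton channel, gap 37.1 kb) had 0.504 and Zbtb21/B230307C23Rik (gap 34.7 kb) had 1.0. The limit of 20 kb cut through a continuous range: the members with the farthest end just inside were Arl16/Slc25a10 (19.9 kb, strength 0.639) and Zbtb21/B230307C23Rik (19.9 kb), and those just outside were Gm10310/Olfr820 (20.1 kb, 0.372) and Celsr1/Gramd4 (20.2 kb, 0.542).

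**Figure D2:**
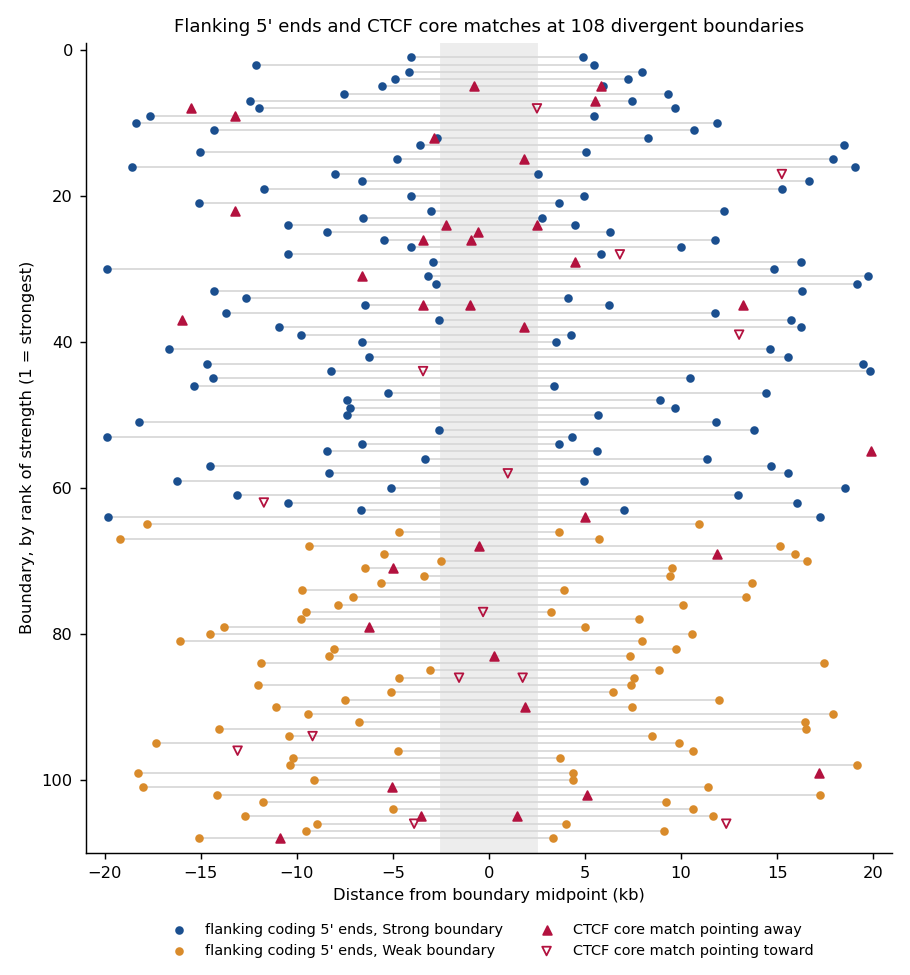
Position of the flanking coding 5′ ends (dots) and of CTCF core matches (triangles) relative to the boundary midpoint (kb, horizontal axis) at the 108 divergent boundaries, ordered by strength (vertical axis, 1 = strongest); grey lines join the flanking 5′ ends and the shaded band is the 5 kb interval. The dots spread over the whole permitted range in Strong and Weak boundaries alike, and 34 of the 48 matches point away from the midpoint.

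Most of the intervals held no coding gene. At 71 of 108 (65.7%, interval 56.0 to 74.6%) no coding gene overlapped the interval. A coding exon did at 32 (29.6%, 21.2 to 39.2%), and only an intron at 5 (4.63%, 1.52 to 10.5%). The intron-only share was 13.6% over all boundaries and 3.80% in the other arrangement with genes on both sides. Over all boundaries 56.7% held no coding gene and 29.8% a coding exon, and without coding 5′ ends within 20 kb 67.5% held no coding gene, so the exon share of the divergent set was that of the whole list. In the other arrangement with genes on both sides, where gene bodies run into the gap, 41 of 184 (22.3%, 16.5 to 29.0%) held no coding gene and 136 (73.9%) an exon. This difference follows in part from the rule, which asks for genes that run outwards. A coding gene ended inside 15 intervals (13.9%, 7.99 to 21.9%), beside 6.43% of all boundaries and 34.2% in the other arrangement. Where the nearest coding 5′ ends were the divergent ones, a coding gene ended inside 6 of 80 (7.5%, 2.80 to 15.6%), near the share of the list. A long noncoding RNA gene began inside 6 intervals (5.56%, 2.07 to 11.7%), beside 2.53% of all boundaries. These were Gm26634 at Lgals2/Gga1, Gm26912 at Mok/Zfp839, Gm20659 at Sost/Cfap97d1, Gm16755 at Arl16/Slc25a10, BC024386 at Cox8b/Nlrp6 and Gm44200 at Fancd2os/Vhl (named after their values were seen), with strengths of 1.58, 1.17, 1.13, 0.639, 0.360 and 0.290.

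The rule allowed further genes between. At 80 of the 108 boundaries the nearest coding 5′ ends were themselves the divergent ones. At 28 another coding gene began between the midpoint and the 5′ end of a flanking gene. Exactly 2 coding 5′ ends lay within 20 kb at 58 boundaries. The 80 simple cases had a median strength of 0.648 (interval 0.543 to 0.777) and 50 of 80 were Strong (62.5%), while the 28 others had a median of 0.468 (0.318 to 0.802) and 14 were Strong. The intervals of these medians overlap.

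CTCF core matches were searched on both strands with the 14-base core consensus, without mismatches, which gave 6562 sites on chromosomes 1 to 19 and X. A match lay inside the 5 kb interval at 15 of the 108 divergent boundaries (13.9%, interval 7.99 to 21.9%), beside 3.79% of all boundaries and 1.25% of all 5 kb windows of the genome. It lay inside 14 of 184 intervals in the other arrangement on both sides (7.61%, 4.22 to 12.4%), 4.42% with genes on 1 side (3.55 to 5.43%), 2.65% with a gene start inside (1.52 to 4.27%) and 3.34% without a coding 5′ end within 20 kb (2.87 to 3.86%). The interval of the divergent set overlapped that of the other arrangement and lay above those of the other 3 sets. With the rule widened to 40 kb the share fell to 8.11% (5.54 to 11.4%) of 370 boundaries. Within 20 kb of the midpoint a match lay at 39 divergent boundaries (36.1%, 27.1 to 45.9%), beside 20.3% of all boundaries and 9.12% of all 40 kb windows. In the other arrangement on both sides this share was 34.2% (27.4 to 41.6%).

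GC content differs between these sets and was not matched. The divergent intervals had a median of 45.6% GC, beside 45.8% in the other arrangement, 43.8% with genes on 1 side, 47.5% with a gene start inside and 40.8% without coding 5′ ends nearby. Spearman's rho of strength with GC content of the interval was 0.297 across all 8058 boundaries and 0.074 across the 108 divergent ones. The part of GC content in the shares of CTCF matches and in the differences in strength between sets was not tested. DpnII sites numbered a median of 13 per interval in the divergent set and 12 in the whole list, and no divergent interval held undetermined bases.

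The 15 boundaries with a match inside the interval spanned most of the range of strength. The highest was Gdf7/Hs1bp3 (2.05) and the lowest Wnt9b/Wnt3 (0.225), with a median of 0.803 (0.321 to 1.15), and 9 were Strong. Eif3c/Apobr, the first of which codes for a subunit of translation initiation factor eIF3, had a match 1.859 kb right of the midpoint and a strength of 0.303, while Lmntd2/Phrf1 had one 0.555 kb left of it and a strength of 1.14 (both chosen after their values were seen). Of the 16 matches inside intervals 11 pointed away from the midpoint. Within 20 kb of all boundaries 66.9% of matches did, and the share inside the intervals of other boundaries was not counted.

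In the divergent set the median strengths with and without a CTCF core match lay close together, with wide intervals. With a match within 20 kb the median was 0.628 (0.354 to 1.0, n = 39), and without one it was 0.633 (0.467 to 0.733, n = 69). The Strong shares were 59.0% (42.1 to 74.4%) and 59.4% (46.9 to 71.1%). Over all 8058 boundaries the medians were 0.759 (0.731 to 0.799) with and 0.451 (0.440 to 0.466) without a match, and the Strong shares 70.3 and 45.8%. The other arrangement on both sides resembled the divergent set, with medians of 0.658 and 0.691. With genes on 1 side the medians were 0.834 and 0.629, and without coding 5′ ends nearby 0.734 and 0.387. Whether the contrast with and without a match differs between these sets was not tested, and the intervals of the divergent set hold both medians of the 1-sided set.

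**Figure D3:**
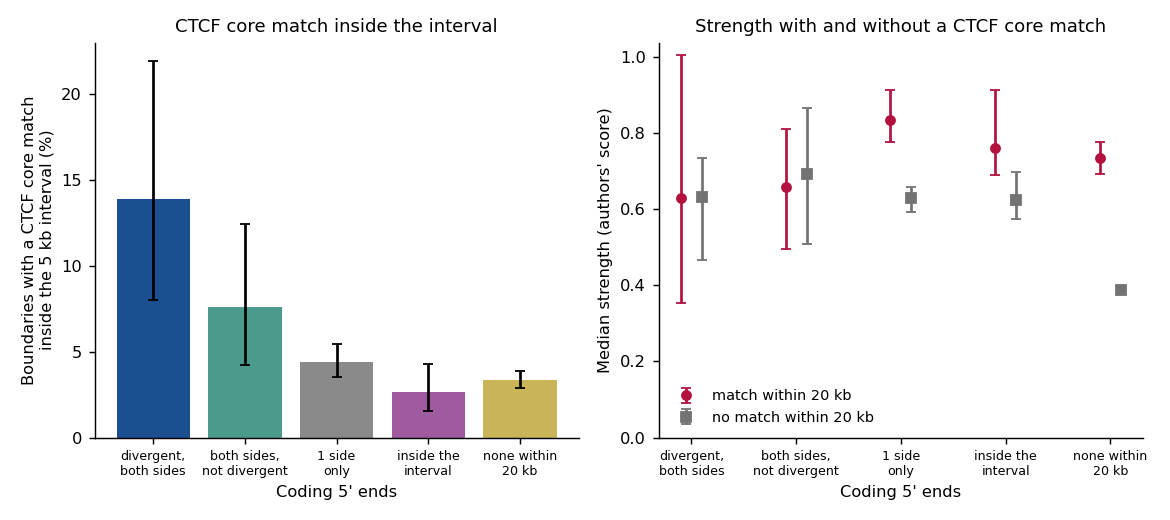
Left, share of boundaries with a CTCF core match inside the 5 kb interval (%), by where coding 5′ ends lie; the bar is 13.9% for the 108 divergent boundaries and 2.65 to 7.61% for the other sets. Right, median strength (authors' score) with (circles) and without (squares) a match within 20 kb, which is 0.628 and 0.633 for divergent boundaries; error bars in both panels are exact 95% intervals for counting error.

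The direction of the matches resembled that in the rest of the list. Of the 48 matches within 20 kb of divergent boundaries, 34 pointed away from the midpoint and 14 toward it (70.8% away, interval 55.9 to 83.0%), beside 66.9% of the 1971 matches at all boundaries and 71.6% of the 74 in the other arrangement. Between the flanking 5′ ends lay 34 of the 48 matches, 26 of which pointed away (76.5%, 58.8 to 89.3%). Beyond them 8 of 14 pointed away (57.1%, 28.9 to 82.3%), and these intervals overlap. Matches pointing away lay on the left only at 13 boundaries, on the right only at 11 and on both sides at 4 (3.70%, 1.02 to 9.21%), beside 0.869% of all boundaries and 3 of 184 (1.63%, 0.338 to 4.69%) in the other arrangement, with overlapping intervals. At 11 boundaries no match pointed away. Ndufaf1/Rtf1 was one of these, with 2 matches inside its interval that both pointed toward the midpoint and a strength of 0.314 (chosen after its values were seen).

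The same question was asked from the genes: how often does a boundary lie between neighbouring coding genes in each orientation? Neighbouring coding 5′ ends 5 to 40 kb apart formed 8627 pairs, and a boundary midpoint lay between them in 9.37%. It did so in 227 of 2106 divergent pairs (10.8%, interval 9.49 to 12.2%), 440 of 5006 tandem pairs (8.79%, 8.02 to 9.61%) and 141 of 1515 facing pairs (9.31%, 7.89 to 10.9%). In a facing pair both genes are transcribed into the gap. Divergent gaps were shorter, with a median of 16.8 kb against 20.2 and 22.4 kb, so per length the difference was larger: 5.75 boundaries per Mb of divergent gap, 4.16 of tandem and 4.15 of facing gap. Of the 227 divergent pairs 80 held a member of the set, 79 held a boundary with a coding 5′ end inside its interval and 68 a boundary with an end over 20 kb away. Whether gene bodies in tandem and facing gaps have a part in the difference was not tested.

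Divergent pairs had the highest share at each gap length. With gaps of 5 to 10 kb it was 5.99% in divergent, 4.72% in tandem and 4.0% in facing pairs, and with 10 to 20 kb it was 8.56, 7.40 and 6.79%. With 20 to 30 kb it was 13.3% (10.5 to 16.6%), 9.19% (7.73 to 10.8%) and 10.2%. With 30 to 40 kb it was 18.5% (14.6 to 22.9%), 13.1% (11.2 to 15.2%) and 13.6%. The intervals of divergent and tandem pairs overlapped in each of these 4 ranges. Beyond the range of the rule, with gaps of 40 to 100 kb, they did not: 32.4% (29.6 to 35.4%) of divergent pairs had a boundary, 22.9% (21.5 to 24.5%) of tandem and 24.2% (22.02 to 26.6%) of facing pairs. Strong boundaries alone lay in 6.70% of divergent (5.66 to 7.85%), 5.05% of tandem (4.46 to 5.70%) and 6.53% of facing pairs (5.34 to 7.90%) with gaps of 5 to 40 kb. Divided by gap, the Strong share was highest in divergent pairs except at 10 to 20 kb, where facing pairs had 5.10% and divergent pairs 4.95%.

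**Figure D4:**
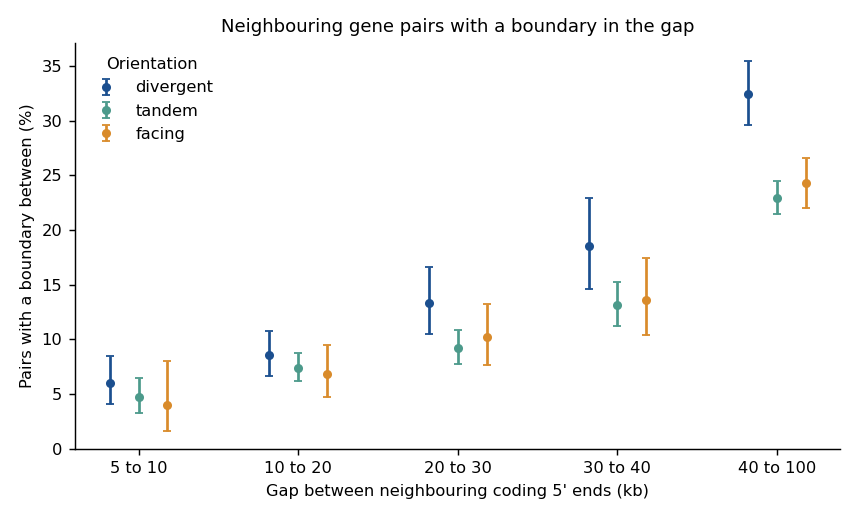
Share of neighbouring coding gene pairs with a boundary midpoint between their 5′ ends (%, vertical axis) by the gap between the 5′ ends (kb) and by orientation; bars are exact 95% intervals for counting error. The share is highest for divergent pairs at each gap length, from 5.99% at 5 to 10 kb to 32.4% at 40 to 100 kb.

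A CTCF core match in the gap went with a boundary in every orientation. Of the 230 divergent pairs with a match between their 5′ ends 49 had a boundary there (21.3%, 16.2 to 27.2%), and of the 1876 without a match 178 did (9.49%, 8.20 to 10.9%). In tandem pairs the shares were 16.3 and 7.90%, in facing pairs 16.6 and 8.32%. Gaps with a match were longer (median 21.2 against 16.2 kb in divergent pairs), and the part of length in this was not tested. A match was about as frequent in the gaps of each orientation, in 10.9% of divergent, 10.5% of tandem and 11.9% of facing pairs. By promoters, 13.9% of divergent pairs with 1 CpG-rich promoter (11.6 to 16.4%), 10.6% with CpG-rich promoters at both genes (7.92 to 13.9%) and 7.51% with none (5.78 to 9.56%) had a boundary in the gap. In the same order the shares were 10.7, 11.3 and 6.98% in tandem pairs and 11.6, 10.0 and 7.002% in facing pairs. Divergent pairs thus had the highest share with 1 or no CpG-rich promoter, by a small margin with none, and not with 2, and the intervals overlapped in each case.

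Of the written gene lists, those of olfactory neuron function and chromatin architecture had no member among the flanking genes. Genes of olfactory transduction and transport had 0 of 24 members beside a divergent boundary, regulators of receptor choice 0 of 28, axon guidance genes 0 of 26 and genes of CTCF, cohesin and condensin 0 of 20. Over all coding genes the share was 0.993%, so lists of this size would hold few in any case. Among housekeeping genes Actg1 was the 1 of 28. Of 1135 olfactory receptor genes 6 flanked a divergent boundary (0.529%): Olfr71 (0.665), Olfr523 (0.826), Olfr55 (0.493), Olfr465-ps1, which the annotation lists as coding (0.328), and Olfr645 and Olfr646 at a single boundary (0.312). Vomeronasal receptors (0 of 331), proteasome (0 of 40) and Hox genes (0 of 39) had none.

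Genes with symbols of translation were counted next, beside the 0.993% of all coding genes. The ribosomal protein symbols matched 2 of 86 (2.33%), Rps23 and Rps19bp1, which codes for a binding partner of a ribosomal protein. Rps19bp1/Cacna1i (the second a T-type calcium channel gene) had a strength of 0.988. The symbols of translation factors matched 3 of 67 (4.48%), Eif3b (0.645), Eif3c (0.303) and Eif4enif1. Respiratory chain symbols matched Cox8b (0.360) and the assembly factor gene Ndufaf1 of 94, and mitochondrial ribosomal proteins Mrpl30 of 78 (0.322). Zinc finger genes had 3 of 424, solute carriers 5 of 371, histone genes 1 of 78 and numbered transmembrane protein genes 1 of 242. These counts are too small to set a list apart from coding genes as a whole.

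The domains beside divergent boundaries tended to be shorter than over the whole list, a difference that was not tested. The distance to the adjacent boundary had a median of 195 kb over 213 spacings (quartiles 150 and 265 kb), beside 210 kb in the other arrangement on both sides, 230 kb with genes on 1 side, 280 kb without coding 5′ ends nearby and 260 kb over all. Both flanking genes ended before the next boundary on their side at 101 of 105 divergent boundaries with a measured domain on both sides (96.2%, 90.5 to 99.0%). The 4 exceptions lay beside the long genes Col26a1, Nav2, Ntn1 (netrin 1, an axon guidance cue) and Adgrv1. The same share was not counted for other boundaries, so the 96.2% is not shown to be particular to the divergent set. Spearman's rho of strength with the distance to the adjacent boundary was 0.223 on the left (n = 106) and 0.320 on the right (n = 107) across divergent boundaries, and 0.0379 and 0.0299 across the whole list. This relation was not examined in the other sets near coding genes, so it is not shown to be particular to the divergent set. These are descriptions of points from 1 map.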

How the data were processed

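The authors pooled the contacts of both replicates on GRCm38 and called boundaries on the resulting matrix, per the series design text; caller, window and mapper: not given in the sources used here. Each deposited row holds a 5 kb interval, its class and the authors' strength score, whose scale is unstated and which served here only to rank and divide boundaries. Gene positions came from GENCODE M21 (GRCm38), with the 5′ end of the gene record as the start, and sequence from RefSeq GRCm38.p6. Of the 216 flanking genes, 162 had an entry in the RefSeq promoter table, so promoters were read from the genome instead. Distances run from the interval's midpoint. CTCF binding was not measured: a site is an exact match to the core consensus in the reference strain.

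Shares have exact Clopper-Pearson intervals and medians exact order-statistic intervals (scipy 1.17.1). Spacings with over 50 kb of undetermined bases were left out. The procedures were tested on simulated data. The members and gene lists were chosen with earlier results of these data known. Named pairs are those of the 12 highest and 4 lowest strengths, of written lists, of CTCF matches away on both sides, and of the 3 longest and 3 shortest gaps. One pair with CTCF matches away on both sides is not reported here. Others are examples or counts. Alternatives used other windows, gene starts, gene sets, boundary classes and motif rules, of which those for CTCF matches inside the interval were chosen after seeing the data.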

Additional observations from a re-analysis of the deposited data

How the results depend on the processing

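Of 51 alternative values of 7 results, 39 stayed within the counting interval or, for the count of members, within 1.5 times, among them each alternative for the Strong share (58.5 to 65.3%) and the median strength (0.628 to 0.680). The number of divergent boundaries was 34 with a window of 10 kb, 370 with 40 kb and 64 with Strong boundaries only, as fewer or more places could meet the rule. With 1 mismatch allowed the CTCF core matched within 20 kb at 89.8% of divergent boundaries and inside the interval at 37.0%, beside 73.1 and 19.2% of all boundaries; the alternatives for matches inside the interval were chosen after seeing the data. With the window of 40 kb the share inside the interval was 8.11%. The reversed consensus, with 86 sites, matched within 20 kb at 0.926% of divergent boundaries, beside 1.09% in the other arrangement on both sides and 0.174% of all. Of its matches 0% (0 of 1) pointed away. With so few sites it cannot serve as a control for the share or the direction of matches. A match was required inside the interval in another setting, which gave the 13.9% reported. The share of divergent pairs with a boundary in the gap was 12.3% with gaps of 10 to 40 kb, 17.8% with 5 to 100 kb, 6.70% with Strong boundaries and 7.03% when the whole interval had to lie in the gap; tandem pairs had 9.50, 14.2, 5.05 and 5.91%, and facing pairs 10.0, 16.5, 6.53 and 6.40%. No paired analysis was possible because both replicates were merged before calling, so no replicate could be left out either, and contact depth, which limits the weak boundaries that can be called, is unknown here.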

Other observations

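Divergent boundaries were spread over 20 chromosomes, from 2 each on chromosomes 3, 9, 10, 19 and X to 14 on chromosome 11. There they made up 3.22% of 435 boundaries, and over the whole list 108 of 8058. Chromosome 11 also had 195 divergent pairs of coding genes 5 to 40 kb apart, and chromosome 7, with 228 such pairs, had 9. All 3 on chromosome 18 were Weak (0.242 to 0.467), and both on chromosome X were Strong (0.651 at Pnck/Slc6a8 and 1.17 at Ftsj1/Slc38a5, the second genes of which code for the creatine transporter and an amino acid transporter). With so few boundaries the intervals of the Strong share were wide (0 to 70.8% and 15.8 to 100%). Both held the 50.8% of all boundaries. The Strong shares of all boundaries on these chromosomes were not counted.

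At 6 of the 108 boundaries the flanking genes shared a family name, a property looked at after the values were seen. Adamts15/Adamts8, which code for secreted metalloproteases, had a strength of 1.32, Defb15/Defb13 (beta-defensins) 0.802, Prss41/Prss21 (serine proteases) 0.593, Olfr645/Olfr646 (olfactory receptors) 0.312, Krtap22-2/Krtap6-1 (keratin-associated proteins) 0.232 and Wnt9b/Wnt3 0.225. These boundaries thus included Strong and Weak ones. The share of such pairs among all neighbouring divergent coding genes was not counted, so the 6 are listed as examples only. The divergent intervals also held more soft-masked sequence, with a median of 34.6% beside 28.7% in the whole list and 28.9% in the other arrangement on both sides; the interval at Morc2b/Olfr55 had 93.9% and a strength of 0.493.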
